A study of Mus musculus with 7 samples.

Results

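The genes described here encode the pore-forming and auxiliary subunits of voltage-gated potassium, calcium and sodium channels, of potassium leak and inward rectifier channels, and Nalcn, the sodium leak channel. They were chosen by gene symbol: symbols beginning Kcn, Cacna1, Cacna2d, Cacnb or Cacng, the Scn symbols ending in a or b, and Nalcn, with 1 Cacng gene left out by the rule. Of 139 annotated genes that match, 95 were among the 17422 genes measured, 91 of them protein-coding and 4 antisense RNAs. The rule uses symbols and no measured value, though earlier results of these data were known when it was set.

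The libraries came from a mouse study of high-grade glioma in which embryonic neural precursors were turned into tumours by a retroviral oncogene. Wild-type BALB/c precursors of embryonic day 14 were transduced with PDGF-B and the red fluorescent protein DsRed. Ink/Arf -/- BALB/c precursors, which lack the locus of the Cdkn2a tumour suppressors, were transduced with EGFRvIII, a truncated and constitutively active epidermal growth factor receptor, and DsRed. Both kinds of precursor were kept for 10 days in medium with B27, human bFGF and EGF, then 20000 cells per mouse were placed in adult BALB/c brain. Tumours were taken at the first neurological symptoms and sorted for DsRed. RNA was sequenced from 3 tumours labelled PDGF-B, 3 tumours labelled EGFRvIII, each described as an independent tumour, and 1 library of wild-type precursors transduced with PDGF-B and sorted for DsRed without grafting. Oncogene and Ink/Arf genotype differ together between the glioma groups. Grafting, the host brain and age in culture or tumour differ together between the gliomas and the culture. By the labels, the EGFRvIII-labelled tumours also differ from the culture in oncogene and Ink/Arf genotype.

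Voltage-gated channels open when the membrane depolarises. Sodium and calcium channels then carry an inward current that excites the cell, and voltage-gated potassium channels carry the outward current that repolarises it. Leak potassium channels and inward rectifiers hold the resting membrane near the potassium equilibrium potential, and the sodium leak through Nalcn pulls it the other way. Auxiliary subunits set how many channels reach the membrane and how fast they open and close. Oligodendrocyte precursors, neurons and astrocytes differ in which of these genes they use: precursors carry sodium channels and inward rectifiers, and astrocytes buffer extracellular potassium through Kcnj10.

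Levels are given as read counts scaled by library size (CPM), recovered from the deposited log2 values, and differences as log2 fold changes on the deposited scale with their standard error. A gene was called where its Benjamini-Hochberg adjusted p from limma, over all 17422 genes, was under 0.05. Recovered depth was 32513749 to 39062578 reads per library. The driver genes did not match the labels in any of the 6 gliomas. Egfr stood at 4952, 5109 and 3594 CPM in the PDGF-B-labelled tumours and 41.2, 26.9 and 25.6 CPM in the EGFRvIII-labelled tumours, and Pdgfb at 1.95, 2.97 and 4.88 CPM in the PDGF-B-labelled tumours and 386, 284 and 277 CPM in the EGFRvIII-labelled tumours. The groups are therefore named by their labels only. In a principal component analysis of the 6 gliomas, the leading component placed PDGF-B replicate 3 at -5.77 against -89.3 and -88.7 for its group mates and 37.2 to 102 for the EGFRvIII-labelled tumours. Oligodendrocyte precursor markers were high in every glioma: their mean was 8.55 to 10.6 log2 CPM against 7.09 in the culture. The sum of 16 microglia and macrophage markers was 514 to 1512 CPM in the PDGF-B-labelled tumours, 5965 to 15348 CPM in the EGFRvIII-labelled tumours and 22.5 CPM in the culture, where 3 of the 16 had no read. The sum of 12 neuron markers was 154 to 329 CPM in the gliomas and 127 CPM in the culture. Their mean was 1.83 to 2.67 log2 CPM in the gliomas and 2.28 log2 CPM in the culture. Of the 12, 2 were called higher than the culture in the PDGF-B-labelled tumours, against 7.73% of all genes, and 0 in the EGFRvIII-labelled ones. Rbfox3, which marks mature neuronal nuclei, stood at 0.280 to 1.69 CPM in the gliomas and 1.17 CPM in the culture. The part of these other cells in the channel results was not tested except where a value is given. In sorted bulk samples, fewer cells of a type and less RNA per cell cannot be told apart.

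Channel RNA as a whole was more abundant in the gliomas than in the progenitor culture. The 95 genes summed to 6399, 7371 and 4088 CPM in the PDGF-B-labelled tumours, 4694, 3165 and 4011 CPM in the EGFRvIII-labelled tumours and 2558 CPM in the culture. All 6 gliomas lay above the culture for 49 of the 95 genes, against 27.8% of all genes measured, and all 6 lay below it for 8, against 24.0% of all genes. Between the PDGF-B-labelled tumours and the culture, 26 of the 95 genes were called, against 9.45% of all genes: 24 higher, against 7.73%, and 2 lower, against 1.73%. Between the EGFRvIII-labelled tumours and the culture, 23 were called, against 9.55%: 20 higher, against 8.2%, and 3 lower, against 1.34%. The median log2 fold change over the 95 genes was 1.48 and 0.93 in these comparisons, and over all genes 0.04 and 0.01. Both comparisons use the same single culture library, which has no replicate and is taken to vary like the gliomas. The count of 26 was 17 without PDGF-B replicate 1 and 40 without PDGF-B replicate 3, and the count of 23 was 14 without EGFRvIII replicate 1 or 3 and 15 without PDGF-B replicate 1. With voom weights 13 and 9 calls were left. Those lost in the PDGF-B-labelled tumours were Nalcn, Scn1a, Scn3b, Cacna1e, Cacna1g, Kcna6, Kcnd1, Kcnip1, Kcnab1, Kcnk1, Kcnk13, Kcnj8 and Kcnu1 (limma adjusted p = 0.0561 to 0.125). Those lost in the EGFRvIII-labelled tumours included Scn1a, Scn2a, Scn3b, Cacna1d, Cacnb4, Kcnq3, Kcna6, Kcnd1, Kcnk1, Kcnk13, Kcnj16, Kcnj5 and Kcnu1 (limma adjusted p = 0.0503 to 0.177). With only the 4 libraries compared, 12 genes were called in the PDGF-B-labelled tumours, and those lost were Scn2a, Scn3a, Cacna1d, Kcnip3 and the genes named for voom weights other than Kcnk1 and Kcnk13 (limma adjusted p = 0.0501 to 0.119). Oligodendrocyte precursor markers were also above the culture, with 6 of 10 called higher in the PDGF-B-labelled tumours and 3 of 10 in the EGFRvIII-labelled ones. Of 9 measured myelinating oligodendrocyte markers, 6 and 3 were called higher in the same order. The 10 astrocyte markers had medians of -1.62 and -1.41, with 2 higher and 1 lower, then 1 higher and 1 lower. The part of these cells in the channel results was not tested.

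**Figure D1:**
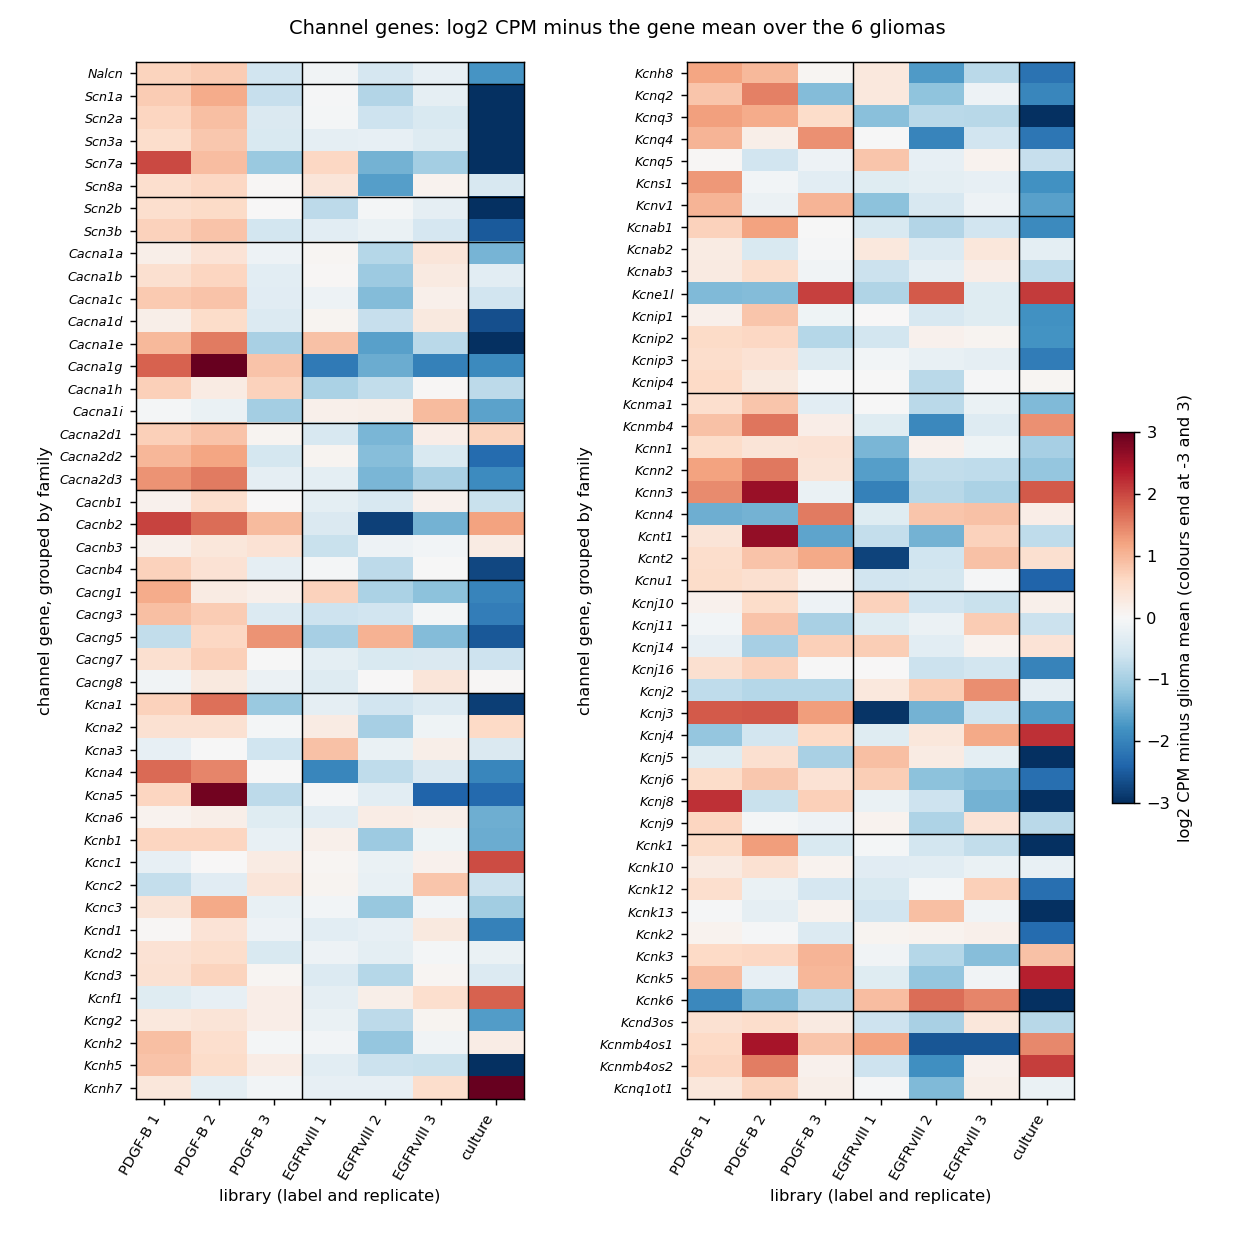
Log2 CPM of the channel genes drawn (rows, by family) in the 7 libraries (columns), as the difference from the mean of the 6 gliomas; red is above that mean and blue below it. The culture column is mostly blue, with a median of -1.38 over the 95 genes, while the glioma columns have medians from -0.61 to 0.56.

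The calls against the culture were also counted by family. Of the sodium channel genes, 3 pores (Scn1a, Scn2a and Scn3a) and the beta subunits Scn2b and Scn3b were called higher in each glioma group. Among 8 tandem-pore leak potassium channels, 4 were called higher in each group. Of 25 voltage-gated potassium channel pore genes, 4 were called higher and 2 lower in each group. For comparison, a higher call was made for 7.73% of the 17422 genes measured in the PDGF-B-labelled tumours and 8.2% in the EGFRvIII-labelled ones. A lower call was made for 1.73% and 1.34%, respectively. None of the 3 alpha2delta calcium channel subunits, the 5 gamma subunits or the 4 antisense RNAs was called in either comparison, by limma or by limma with voom weights. At an unadjusted p of 0.05, which 27.2% of all genes passed in the PDGF-B-labelled tumours and 23.9% in the EGFRvIII-labelled ones, 2 alpha2delta and 4 gamma subunits passed in the former and 1 antisense RNA in the latter. Over the families, medians of the log2 fold change in the PDGF-B-labelled tumours ran from 0.23 for the antisense RNAs and 0.61 for the calcium channel beta subunits to 3.48 for the sodium channel pores. In the EGFRvIII-labelled tumours the sodium channel pores again had the top family median, at 2.80. These counts and medians describe the families, which were not tested against each other.

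**Figure D2:**
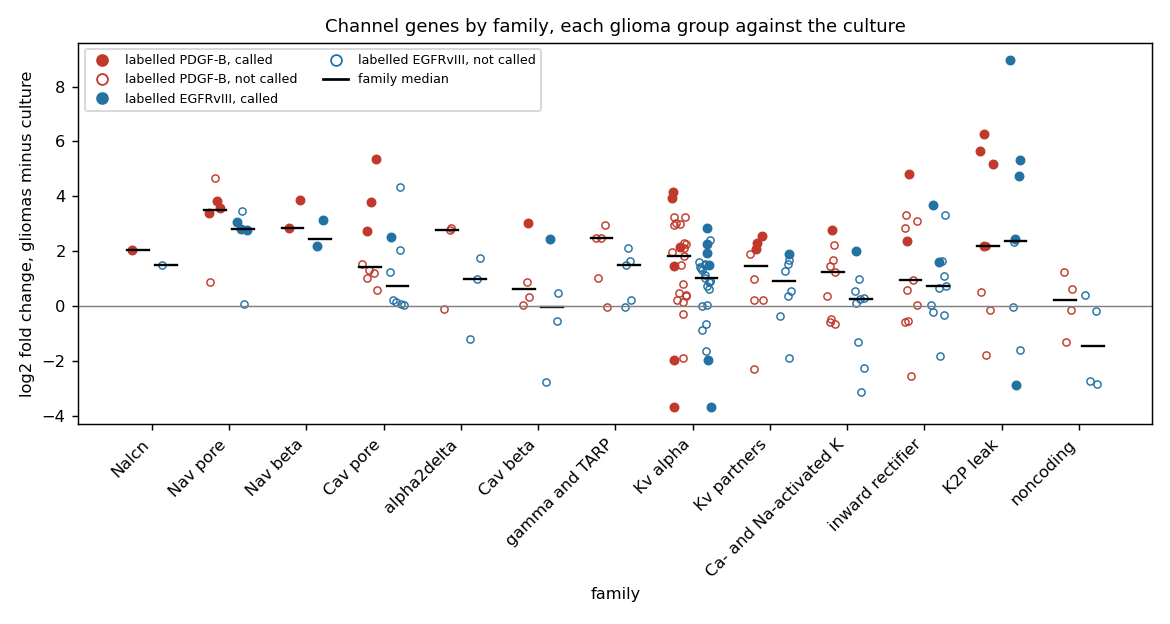
Log2 fold change of channel genes against the culture, for the PDGF-B-labelled tumours and the EGFRvIII-labelled tumours, by family; filled points were called at an adjusted p of 0.05, open points were not, and black bars are medians over each whole family, of which a few genes are not drawn. The sodium channel pore genes have medians of 3.48 and 2.80, and the called points below 0 belong to voltage-gated potassium channels and a leak potassium channel.

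Among the sodium channel genes, the pores Scn1a, Scn2a and Scn3a and the beta subunits Scn2b and Scn3b rose over the culture. Scn3a, the pore that predominates in embryonic brain, stood at 158, 193 and 80.8 CPM in the PDGF-B-labelled tumours, 91.9, 93.5 and 84.8 CPM in the EGFRvIII-labelled tumours and 12.8 CPM in the culture. Every glioma held several times the culture level, with log2 fold changes of 3.39 ± 0.45 (SE, limma adjusted p = 0.00572) and 2.81 ± 0.45 (SE, limma adjusted p = 0.0086). Scn2a, the pore of unmyelinated axons and immature nodes, stood at 122, 145 and 57.8 CPM in the PDGF-B-labelled tumours, 74.8, 50.7 and 56.2 CPM in the EGFRvIII-labelled tumours and 7.04 CPM in the culture. Its log2 fold changes were 3.83 ± 0.50 and 3.07 ± 0.50 (SE, limma adjusted p = 0.0057 and 0.00973). Scn1a, named after its values were known, stood at 82.3, 106 and 29.9 CPM in the PDGF-B-labelled tumours, 47.0, 26.5 and 40.4 CPM in the EGFRvIII-labelled tumours and 5.31 CPM in the culture and was called in both groups (log2 fold changes 3.57 and 2.78, limma adjusted p = 0.02 and 0.0439). Its call in the PDGF-B-labelled tumours was lost without PDGF-B replicate 1 (limma adjusted p = 0.0513), and that in the EGFRvIII-labelled tumours without PDGF-B replicate 1 or EGFRvIII replicates 1, 2 or 3 (limma adjusted p = 0.0634 to 0.11).

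These genes lie in the same region of mouse chromosome 2 (GRCm38, the assembly mm10 denotes): Scn3a from 65457118 to 65567627, Scn2a from 65620771 to 65767447, Scn1a from 66270778 to 66440840 and Scn7a from 66673425 to 66784914. Scn7a, which encodes a sodium sensor rather than a voltage-gated channel, was spread too widely to be called: it stood at 221, 105 and 25.7 CPM in the PDGF-B-labelled tumours, 86.2, 20.9 and 27.6 CPM in the EGFRvIII-labelled tumours and 3.30 CPM in the culture (log2 fold changes 4.65 and 3.46, limma adjusted p = 0.0509 and 0.122). Scn8a did not pass either. This gene on chromosome 15, the pore of mature nodes of Ranvier, stood at 191, 206 and 138 CPM in the PDGF-B-labelled tumours, 174, 42.7 and 145 CPM in the EGFRvIII-labelled tumours and 96.9 CPM in the culture, so that EGFRvIII replicate 2 lay below the culture.

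The beta subunits modulate gating and act as adhesion molecules, and Scn2b and Scn3b were also above the culture. Scn2b stood at 21.8, 22.9 and 15.4 CPM in the PDGF-B-labelled tumours, 8.89, 14.7 and 12.6 CPM in the EGFRvIII-labelled tumours and 1.3 CPM in the culture, with log2 fold changes of 3.86 ± 0.41 and 3.12 ± 0.41 (SE, limma adjusted p = 0.00318 and 0.00409). Scn3b stood at 151, 170.1 and 63.9 CPM in the PDGF-B-labelled tumours, 75.5, 82.1 and 66.4 CPM in the EGFRvIII-labelled tumours and 16.4 CPM in the culture. Its log2 fold changes were 2.84 and 2.18 (limma adjusted p = 0.0173 and 0.0407), and the latter call was lost without PDGF-B replicate 1 or EGFRvIII replicates 1, 2 or 3 (limma adjusted p = 0.0567 to 0.0957).

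Nalcn (chromosome 14, 123276634 to 123627144), the sodium leak pore, stood at 159, 171 and 66.7 CPM in the PDGF-B-labelled tumours, 93.1, 70.2 and 84.8 CPM in the EGFRvIII-labelled tumours and 29.4 CPM in the culture. Every glioma lay above the culture, and PDGF-B replicate 3 was the lowest of the 6. The log2 difference was 2.05 ± 0.51 in the PDGF-B-labelled tumours (SE, limma adjusted p = 0.0498) and 1.48 ± 0.51 in the EGFRvIII-labelled tumours (SE, limma adjusted p = 0.128). The PDGF-B call was lost without PDGF-B replicates 1 or 2 or EGFRvIII replicates 1, 2 or 3 (limma adjusted p = 0.0648 to 0.119). Pseudocounts of 0.1 or 1 CPM, median-ratio size factors and moderation without trend or robust fitting each lost it too. In total, 11 of 14 alternative fits lost the PDGF-B call. Without PDGF-B replicate 3, the comparison of the EGFRvIII-labelled tumours with the culture passed (limma adjusted p = 0.0142). Without the same library, the PDGF-B-labelled tumours stood above the EGFRvIII-labelled tumours by 1.01 on the log2 scale (limma adjusted p = 0.0362), against 0.57 (limma adjusted p = 0.472) with all 6. Scn3a moved in the same way in that comparison, from 0.59 (limma adjusted p = 0.4) to 0.96 (limma adjusted p = 0.0357).

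**Figure D3:**
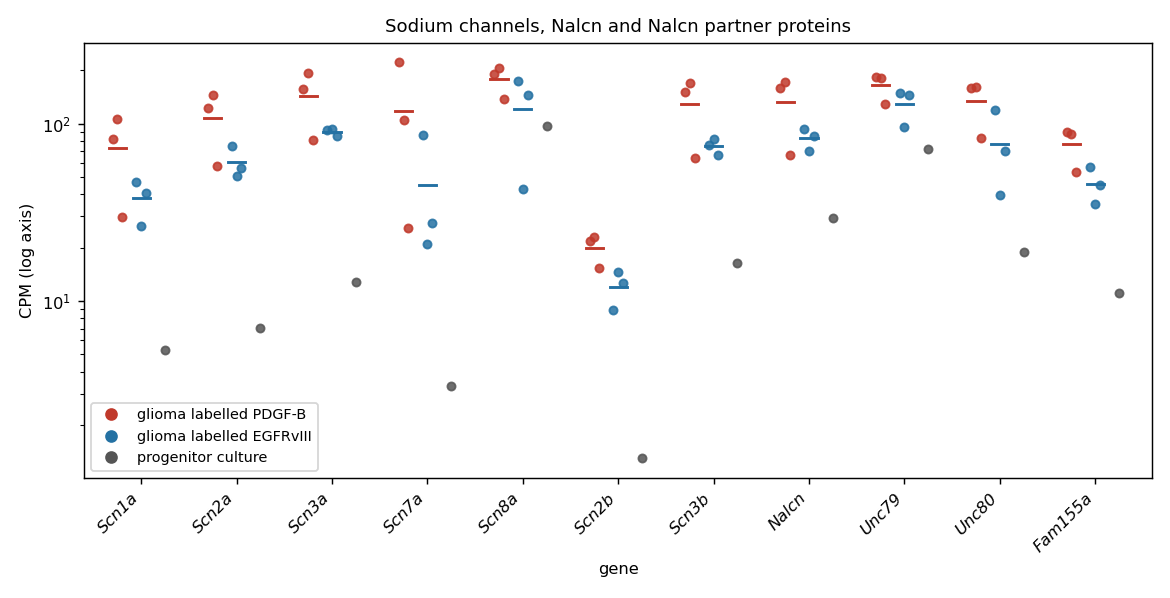
CPM on a log axis of sodium channel genes, Nalcn and the genes of its partner proteins in each library (points; red, labelled PDGF-B; blue, labelled EGFRvIII; grey, culture), with horizontal bars at the group means. Scn3a, Scn2a, Scn1a, Scn2b and Nalcn lie above the culture in every glioma, with Scn3a at 80.8 to 193 CPM against 12.8 CPM.

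Nalcn works in a complex with Unc79, Unc80 and the product of Fam155a, which were named for that reason. Fam155a stood at 89.7, 88.0 and 53.2 CPM in the PDGF-B-labelled tumours, 57.1, 35.2 and 45.3 CPM in the EGFRvIII-labelled tumours and 11.1 CPM in the culture and rose in both groups (log2 fold changes 2.75 and 2.01, limma adjusted p = 0.00729 and 0.02). The call in the EGFRvIII-labelled tumours was lost without EGFRvIII replicates 1 or 3 (limma adjusted p = 0.0521 to 0.059). Unc80 stood at 159, 160.1 and 82.6 CPM in the PDGF-B-labelled tumours, 120.0, 39.5 and 69.7 CPM in the EGFRvIII-labelled tumours and 18.9 CPM in the culture and passed for the PDGF-B-labelled tumours (log2 fold change 2.76, limma adjusted p = 0.0352) but not for the other group (1.87, limma adjusted p = 0.114). Its call was lost without PDGF-B replicates 1 or 2 or EGFRvIII replicate 3 (limma adjusted p = 0.0698 to 0.0872). With voom weights that call and the EGFRvIII call of Fam155a were lost (limma adjusted p = 0.0789 and 0.0739). Unc79, at 72.2 CPM in the culture and 95.5 to 184 CPM in the gliomas, was not called with all 7 libraries (limma adjusted p = 0.0787 and 0.205). Without EGFRvIII replicate 2 or PDGF-B replicate 3 its rise in the PDGF-B-labelled tumours passed (limma adjusted p = 0.0393 and 0.0489). Over the 16 measured genes of a list of channel partner proteins, 7 were called higher and 1 lower in the PDGF-B-labelled tumours, and 5 higher and 1 lower in the EGFRvIII-labelled tumours, with medians of 1.39 and 0.94. The shares over all genes were 7.73% and 8.2% higher, and 1.73% and 1.34% lower. The smallest p among the higher genes belonged to Fgf12, an intracellular sodium channel modulator, in the PDGF-B-labelled tumours, and to Ank3, the ankyrin that anchors sodium channels, in the EGFRvIII-labelled tumours. Fgf12 stood at 75.9, 69.0 and 44.8 CPM in the PDGF-B-labelled tumours, 49.99, 51.0 and 44.9 CPM in the EGFRvIII-labelled tumours and 12.6 CPM in the culture (log2 fold change 2.28, limma adjusted p = 0.00725). Ank3 stood at 351, 375 and 210.4 CPM in the PDGF-B-labelled tumours, 328, 171 and 244 CPM in the EGFRvIII-labelled tumours and 34.0 CPM in the culture (log2 fold change 2.81, limma adjusted p = 0.00885). The gene called lower was Nedd4l, a ubiquitin ligase that removes sodium channels from the membrane, at 2.90, 4.15 and 7.62 CPM in the PDGF-B-labelled tumours, 9.84, 6.99 and 6.65 CPM in the EGFRvIII-labelled tumours and 68.2 CPM in the culture (log2 fold changes -3.90 and -3.14, limma adjusted p = 0.00732 and 0.0142).

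Of 8 calcium channel pore genes, 3 were called higher than the culture in the PDGF-B-labelled tumours and 1 in the EGFRvIII-labelled tumours. The shares over all genes were 7.73% and 8.2%. Cacna1d, an L-type pore that opens at low voltage for its class, stood at 133, 174 and 88.9 CPM in the PDGF-B-labelled tumours, 125, 72.9 and 145 CPM in the EGFRvIII-labelled tumours and 19.1 CPM in the culture. All 6 gliomas exceeded the culture, and the log2 fold changes of 2.74 ± 0.47 and 2.52 ± 0.47 passed (SE, limma adjusted p = 0.0148 and 0.0181), the latter call being lost without EGFRvIII replicate 1 (limma adjusted p = 0.0551). Cacna1g, a T-type pore that opens near the resting potential, set the glioma groups apart: it stood at 59.4, 141 and 31.9 CPM in the PDGF-B-labelled tumours, 3.99, 6.22 and 4.28 CPM in the EGFRvIII-labelled tumours and 4.63 CPM in the culture. Against the culture its log2 difference was 3.78 ± 0.73 in the PDGF-B-labelled tumours (SE, limma adjusted p = 0.0217, lost without PDGF-B replicate 1 (limma adjusted p = 0.0535)) and 0.03 ± 0.73 in the EGFRvIII-labelled tumours (SE, limma adjusted p = 0.987). The related T-type pore Cacna1h stood at 177, 127 and 175 CPM in the PDGF-B-labelled tumours, 55.8, 64.5 and 111 CPM in the EGFRvIII-labelled tumours and 62.8 CPM in the culture and was not called. Cacna1e, the R-type pore, named after its values were known, ranged over 47.3 to 432 CPM in the gliomas against 5.01 CPM in the culture. Its call in the PDGF-B-labelled tumours (log2 fold change 5.37 ± 1.12, SE, limma adjusted p = 0.0283) was lost without PDGF-B replicates 1 or 2 or EGFRvIII replicate 3 (limma adjusted p = 0.0549 to 0.0691). Cacna1a, the P/Q-type pore and the second pore of its family in abundance per length, stood at 70.5 to 169 CPM in the gliomas and 48.7 CPM in the culture without passing (limma adjusted p = 0.0855 and 0.156).

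Of the cytoplasmic beta subunits that carry calcium channels to the membrane, Cacnb4 rose and the rest did not pass against the culture. Cacnb4 stood at 130.3, 109.9 and 67.5 CPM in the PDGF-B-labelled tumours, 78.5, 47.3 and 80.5 CPM in the EGFRvIII-labelled tumours and 12.1 CPM in the culture, with log2 fold changes of 3.02 ± 0.44 and 2.46 ± 0.44 (SE, limma adjusted p = 0.00801 and 0.0151). Cacnb3 stood at 17.4 to 37.7 CPM in the gliomas and 33.3 CPM in the culture. Among the alpha2delta subunits, which are the targets of gabapentin, Cacna2d2 stood at 20.7, 23.4 and 7.09 CPM in the PDGF-B-labelled tumours, 10.9, 4.18 and 7.50 CPM in the EGFRvIII-labelled tumours and 2.04 CPM in the culture (log2 fold changes 2.85 and 1.75, limma adjusted p = 0.0629 and 0.225). Cacna2d1 stood at 11.1 to 52.2 CPM in the gliomas, a range that held the culture's 45.6 CPM. The gamma family includes proteins that traffic AMPA receptors. Its member Cacng7 stood at 118, 139 and 83.5 CPM in the PDGF-B-labelled tumours, 69.2, 61.6 and 62.1 CPM in the EGFRvIII-labelled tumours and 55.0 CPM in the culture. Cacng5 varied within each label, at 42.5, 109 and 181 CPM in the PDGF-B-labelled tumours, 35.5, 147 and 28.9 CPM in the EGFRvIII-labelled tumours and 12.2 CPM in the culture. Neither gene was called in any comparison. Both passed an unadjusted limma p of 0.05 in the PDGF-B-labelled tumours against the culture, as did 27.2% of all genes. Cacng7 also passed it between the glioma groups, as did 16.7% of all genes.

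The voltage-gated potassium channels held genes that moved in both directions. Kcnq3, a pore of the slow M current that restrains firing, stood at 87.1, 80.9 and 54.8 CPM in the PDGF-B-labelled tumours, 15.6, 21.4 and 21 CPM in the EGFRvIII-labelled tumours and 3.99 CPM in the culture. The groups were ordered without overlap, with log2 fold changes over the culture of 4.17 ± 0.35 and 2.24 ± 0.35 (SE, limma adjusted p = 0.00157 and 0.00758). Kcnh5, an ether-a-go-go pore, stood at 23.7, 19.3 and 15.2 CPM in the PDGF-B-labelled tumours, 10.6, 8.31 and 8.26 CPM in the EGFRvIII-labelled tumours and 1.19 CPM in the culture (log2 fold changes 3.94 ± 0.38 and 2.86 ± 0.38, SE, limma adjusted p = 0.00247 and 0.00433). Kcna6 and Kcnd1, named after their values were seen, were also called higher in both groups, with log2 fold changes of 1.45 and 1.49 for Kcna6 (limma adjusted p = 0.0343 and 0.0295) and 2.13 and 1.94 for Kcnd1 (limma adjusted p = 0.0231 and 0.0296). For Kcna6 the calls were lost without PDGF-B replicates 1 or 2 or EGFRvIII replicate 3 (limma adjusted p = 0.0622 to 0.105) and without PDGF-B replicate 1 or EGFRvIII replicates 2 or 3 (limma adjusted p = 0.0546 to 0.0807), and for Kcnd1 without PDGF-B replicates 1 or 2 (limma adjusted p = 0.0599 to 0.0715) and without PDGF-B replicate 1 or EGFRvIII replicates 1 or 3 (limma adjusted p = 0.0556 to 0.0793), in the order of the comparisons. The A-type pores Kcnd3 and Kcnd2, the most abundant of the family per length, did not pass. Kcnd3 stood at 535, 616 and 406 CPM in the PDGF-B-labelled tumours, 293, 216 and 403 CPM in the EGFRvIII-labelled tumours and 291 CPM in the culture, and it shares its locus with the antisense RNA Kcnd3os. Kcnd2 stood at 204, 217 and 110.1 CPM in the PDGF-B-labelled tumours, 135, 123 and 145 CPM in the EGFRvIII-labelled tumours and 132 CPM in the culture. Kcna2, an axonal delayed rectifier named after its values were seen, was highest in the culture, at 205 CPM against 68.2 to 188 CPM in the gliomas, and did not pass (limma adjusted p = 0.71 and 0.311).

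Kcnc1 and Kcnh7 were lower in both glioma groups than in the culture. Kcnc1 (chromosome 7, 46396497 to 46438704), a fast delayed rectifier that lets neurons fire at high rates, stood at 29.8, 35.2 and 41.7 CPM in the PDGF-B-labelled tumours, 36.5, 30.4 and 38.5 CPM in the EGFRvIII-labelled tumours and 137 CPM in the culture. The 6 gliomas fell within a narrow range far below the culture, with log2 fold changes of -1.96 ± 0.28 and -1.97 ± 0.28 (SE, limma adjusted p = 0.00707 and 0.00512). Kcnh7 (chromosome 2, 62693414 to 63184287), an erg-type pore, stood at 1.71, 1.08 and 1.26 CPM in the PDGF-B-labelled tumours, 1.11, 1.11 and 1.94 CPM in the EGFRvIII-labelled tumours and 17.7 CPM in the culture (log2 fold changes -3.68 ± 0.55 and -3.67 ± 0.55, SE, limma adjusted p = 0.00872 and 0.00692). Kcnh7 overlaps Gca on the opposite strand, and Gca was also more abundant in the culture, at 5.84, 3.43 and 4.74 CPM in the PDGF-B-labelled tumours, 7.07, 6.55 and 7.46 CPM in the EGFRvIII-labelled tumours and 17.2 CPM in the culture. No source used here says whether reads were assigned by strand, so the value of Kcnh7 is uncertain. The same holds for Cacna1d, Cacnb4, Kcnk2 and Kcna6, each of which overlaps a measured gene on the opposite strand with a lower level than its own. On the culture side, neuroblast markers stood at a mean of 5.62 log2 CPM against 2.99 to 3.86 log2 CPM in the gliomas, with 4 of 10 called lower and 1 higher in the PDGF-B-labelled tumours, and 2 lower in the EGFRvIII-labelled tumours. Of all genes, 1.73% and 1.34% were called lower in these comparisons. The part of the neuroblast marker difference in the Kcnc1 and Kcnh7 results was not tested.

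The 250 bases before the RefSeq start (GRCm38.p6) are shown for these falling genes and, for comparison, for Kcnh5 and Nalcn, which were called higher in the PDGF-B-labelled tumours. The Nalcn call was lost in 11 of 14 alternative fits. Each window is written 5′ to 3′ on the gene's strand in lower case, with every CG dinucleotide in capitals, to show how CG density varies between a falling and a rising gene. The windows lie at chr7:46396218-46396467 (+ strand) for Kcnc1, chr2:63184288-63184537 (- strand) for Kcnh7, chr12:75177333-75177582 (- strand) for Kcnh5 and chr14:123627145-123627394 (- strand) for Nalcn.
Kcnc1: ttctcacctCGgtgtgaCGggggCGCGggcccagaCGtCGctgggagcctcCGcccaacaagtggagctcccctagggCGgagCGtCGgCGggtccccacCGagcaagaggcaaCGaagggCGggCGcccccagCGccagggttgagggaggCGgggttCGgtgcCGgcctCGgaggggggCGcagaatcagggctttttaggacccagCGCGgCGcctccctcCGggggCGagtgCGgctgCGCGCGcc
Kcnh7: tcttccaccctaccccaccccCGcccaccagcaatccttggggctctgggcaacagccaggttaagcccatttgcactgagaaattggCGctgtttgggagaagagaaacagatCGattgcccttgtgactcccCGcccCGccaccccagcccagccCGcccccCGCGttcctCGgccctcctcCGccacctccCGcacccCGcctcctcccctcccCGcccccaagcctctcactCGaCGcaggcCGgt
Kcnh5: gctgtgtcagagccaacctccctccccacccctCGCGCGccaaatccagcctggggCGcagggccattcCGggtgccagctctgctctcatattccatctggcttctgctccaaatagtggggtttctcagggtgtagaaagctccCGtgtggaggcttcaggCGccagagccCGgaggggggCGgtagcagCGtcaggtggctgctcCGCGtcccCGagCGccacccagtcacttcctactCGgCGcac
Nalcn: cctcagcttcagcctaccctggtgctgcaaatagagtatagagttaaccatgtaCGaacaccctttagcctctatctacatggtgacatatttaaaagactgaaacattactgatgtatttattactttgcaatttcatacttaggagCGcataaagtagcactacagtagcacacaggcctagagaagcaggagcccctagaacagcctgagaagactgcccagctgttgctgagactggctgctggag
The Kcnc1 window holds 30 CG dinucleotides, and 5.94% of all 32851 RefSeq windows of this length hold at least as many. Kcnh7 and Kcnh5, which belong to the same family and moved in opposite directions, each hold 16. The Nalcn window holds 2, a count that 29.0% of all windows do not exceed. CG reads the same on both strands and occurs in 92.1% of all windows. Windows were found for 69 of the 95 channel genes, with a median of 12.5 per gene and a range of 0 to 43. Over the 17 with a window that were called higher in the PDGF-B-labelled tumours the median was 6 and the range 0 to 26, and over the 50 that were not called it was 14, with a range of 0 to 43. In the EGFRvIII-labelled tumours the medians were 8 over 13 genes called higher and 13 over 53 not called, with the same ranges. The median over all RefSeq genes was 6. The ranges overlap, and these counts describe the sequences only.

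Of 8 genes of proteins that bind voltage-gated potassium channels, 3 were called higher in the PDGF-B-labelled tumours and 1 in the EGFRvIII-labelled tumours. The shares over all genes were 7.73% and 8.2%. Kcnip3, a calcium-binding partner of the A-type pores, stood at 734, 693 and 389 CPM in the PDGF-B-labelled tumours, 481, 433 and 422 CPM in the EGFRvIII-labelled tumours and 119 CPM in the culture. Its log2 fold changes were 2.29 ± 0.39 and 1.90 ± 0.39 (SE, limma adjusted p = 0.0133 and 0.0239), the latter call being lost without EGFRvIII replicates 1, 2 or 3 (limma adjusted p = 0.0508 to 0.0664). Kcnip1 stood at 77.0, 124 and 63.7 CPM in the PDGF-B-labelled tumours, 70.7, 49.6 and 53.9 CPM in the EGFRvIII-labelled tumours and 19.8 CPM in the culture and passed in the PDGF-B-labelled tumours (log2 fold change 2.09 ± 0.39, SE, limma adjusted p = 0.0203) but not in the EGFRvIII-labelled tumours (1.53, limma adjusted p = 0.0546). Kcnab1, a beta subunit named after its values were seen, passed in the PDGF-B-labelled tumours, at 4.21, 6.0 and 2.55 CPM against 0.637 CPM (log2 fold change 2.55, limma adjusted p = 0.0378), and not in the other group (limma adjusted p = 0.237). The call was lost without PDGF-B replicates 1 or 2 or EGFRvIII replicates 1 or 3 (limma adjusted p = 0.064 to 0.112).

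Of the tandem-pore potassium leak channels, Kcnk1, Kcnk2, Kcnk6 and Kcnk13 rose over the culture in each glioma group. Kcnk2, a leak channel opened by stretch and lipids, stood at 131, 120.0 and 91.1 CPM in the PDGF-B-labelled tumours, 128, 132 and 136 CPM in the EGFRvIII-labelled tumours and 24.5 CPM in the culture. The 6 gliomas were close to each other, and the log2 fold changes of 2.20 ± 0.26 and 2.43 ± 0.26 both passed (SE, limma adjusted p = 0.00401 and 0.00189). Kcnk1 stood at 22.2, 35.5 and 10.8 CPM in the PDGF-B-labelled tumours, 14.2, 10.1 and 8.93 CPM in the EGFRvIII-labelled tumours and 0.347 CPM in the culture (log2 fold changes 5.66 ± 0.64 and 4.75 ± 0.64, SE, limma adjusted p = 0.00359 and 0.0046). Kcnk13, a leak channel known from microglia, stood at 13.9, 11.8 and 15.4 CPM in the PDGF-B-labelled tumours, 9.66, 26.7 and 13.3 CPM in the EGFRvIII-labelled tumours and 0.318 CPM in the culture (log2 fold changes 5.19 ± 0.56 and 5.33 ± 0.56, SE, limma adjusted p = 0.00319 and 0.00178). The glioma groups overlapped for Kcnk1, Kcnk2 and Kcnk13. With voom weights the calls of Kcnk1 (limma adjusted p = 0.0724 and 0.107) and Kcnk13 (limma adjusted p = 0.0608 and 0.0523) were lost in both comparisons.

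Kcnk6 was the one leak channel called between the glioma groups. Kcnk3 and Kcnk10, named after their values were seen, did not overlap between the groups and were not called (limma adjusted p = 0.113 and 0.208). Both were higher in the PDGF-B-labelled tumours, opposite to Kcnk6. Of all genes, 10.3% had every PDGF-B-labelled tumour above every EGFRvIII-labelled one, and 12.6% had every one below. Kcnk6 had no read in the culture and stood at 2.91, 4.51 and 6.41 CPM in the PDGF-B-labelled tumours and 21.4, 35.9 and 31.4 CPM in the EGFRvIII-labelled tumours. Against the level of 3 reads that a count of 0 allows in the culture, its mean was at least 53.1-fold higher in the PDGF-B-labelled tumours and at least 341-fold higher in the EGFRvIII-labelled tumours (limma adjusted p = 0.0018 and 0.000313). The 6 gliomas stood in the same order for Kcnk6 as for the summed microglia and macrophage markers, with every EGFRvIII-labelled tumour above every PDGF-B-labelled one and EGFRvIII replicate 2 highest in both. All 16 of those markers were called lower in the PDGF-B-labelled tumours than in the EGFRvIII-labelled tumours, against 2.63% of all genes. Kcnk13 did not stand in that order: its glioma groups overlapped, and EGFRvIII replicate 1 was its lowest glioma. The part of such cells in the Kcnk6 and Kcnk13 values was not tested. Kcnk5, an acid-sensitive leak channel, was lower in the gliomas, at 1.83, 0.788 and 1.93 CPM in the PDGF-B-labelled tumours, 0.717, 0.389 and 0.872 CPM in the EGFRvIII-labelled tumours and 5.01 CPM in the culture. It passed for the EGFRvIII-labelled tumours (log2 fold change -2.89 ± 0.72, SE, limma adjusted p = 0.0479) but not for the PDGF-B-labelled ones (-1.78, limma adjusted p = 0.162). The call was lost without PDGF-B replicate 1 or EGFRvIII replicates 1, 2 or 3 (limma adjusted p = 0.0664 to 0.0936).

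Among the inward rectifiers Kcnj16 rose and Kcnj10 did not pass. Kcnj10, the potassium-buffering channel of glia, stood at 608, 815 and 502 CPM in the PDGF-B-labelled tumours, 901, 372 and 346 CPM in the EGFRvIII-labelled tumours and 612 CPM in the culture. The culture lay inside the range of the gliomas, and no comparison passed (log2 fold changes 0.04 and -0.33 against the culture, limma adjusted p = 0.972 and 0.785). Kcnj16, whose product forms mixed channels with that of Kcnj10, stood at 131, 153 and 93.9 CPM in the PDGF-B-labelled tumours, 94.9, 60.8 and 64.5 CPM in the EGFRvIII-labelled tumours and 23.6 CPM in the culture (log2 fold changes 2.38 ± 0.36 and 1.6 ± 0.36, SE, limma adjusted p = 0.00916 and 0.0348). The call in the EGFRvIII-labelled tumours was lost without PDGF-B replicate 1 or EGFRvIII replicates 1 or 3 (limma adjusted p = 0.0667 to 0.0724). Kcnj8 and Kcnj5, named after their values were seen, had no read in the culture. Kcnj8, a pore of ATP-sensitive channels of mural cells, stood at 4.34, 0.545 and 1.51 CPM in the PDGF-B-labelled tumours and 0.774, 0.568 and 0.300 CPM in the EGFRvIII-labelled tumours, with a mean at least 24.6-fold above the level of 3 culture reads in the former (limma adjusted p = 0.0368), and the call was lost without PDGF-B replicate 1 or EGFRvIII replicates 1, 2 or 3 (limma adjusted p = 0.0551 to 0.0692). Of 8 pericyte and mural cell markers, 3 were called higher in each glioma group, against 7.73% and 8.2% of all genes. In the PDGF-B-labelled tumours 1 of the 8 markers was called lower, against 1.73%. The mean of the mural cell markers was 0.63, 1.11 and 1.87 log2 CPM in the PDGF-B-labelled tumours, 1.32, 2.03 and 2.37 log2 CPM in the EGFRvIII-labelled tumours and 0.13 log2 CPM in the culture. Their sum was 1119, 1333 and 776 CPM in the PDGF-B-labelled tumours, 627, 625 and 775 CPM in the EGFRvIII-labelled tumours and 123 CPM in the culture. PDGF-B replicate 1, with the highest Kcnj8, was the lowest glioma by the mean but not by the sum. The list includes Cspg4, which is also an oligodendrocyte precursor marker. The part of such cells was not tested. Kcnj5, a G protein-gated pore, stood at 0.408, 0.788 and 0.252 CPM in the PDGF-B-labelled tumours and 1.06, 0.658 and 0.436 CPM in the EGFRvIII-labelled tumours and was at least 8.27-fold above that level in the latter (limma adjusted p = 0.0338), and the call was lost without PDGF-B replicate 1 or EGFRvIII replicates 1, 2 or 3 (limma adjusted p = 0.0585 to 0.0849).

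**Figure D4:**
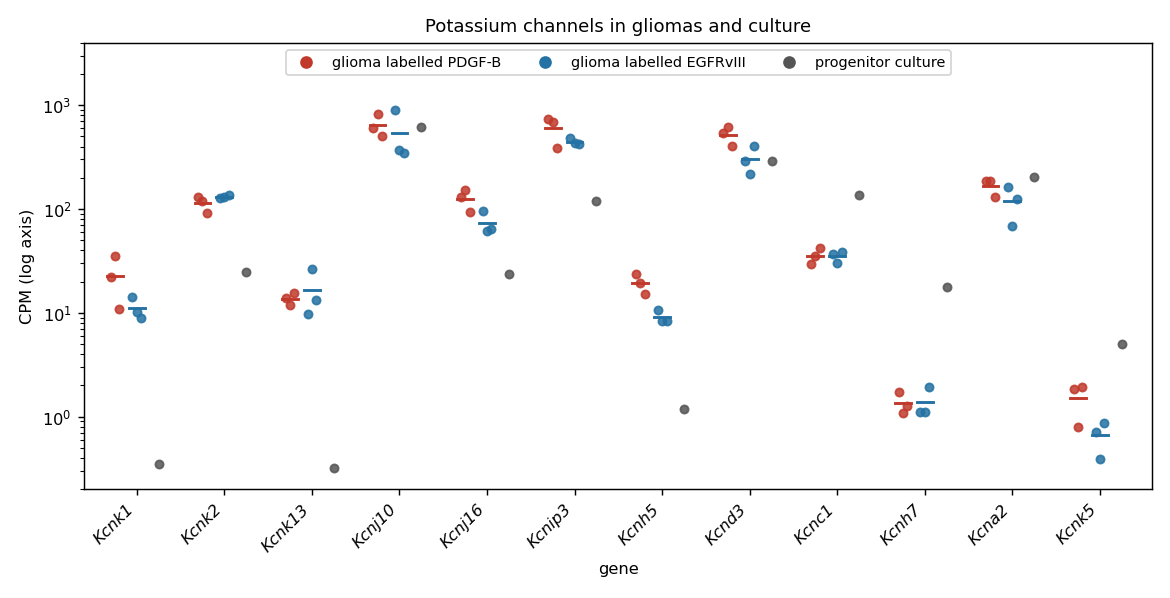
CPM on a log axis of selected potassium channel genes in each library (points; red, labelled PDGF-B; blue, labelled EGFRvIII; grey, culture), with horizontal bars at the group means. Kcnk2 lies at 91.1 to 136 CPM in the gliomas against 24.5 CPM in the culture, Kcnc1 lies below the culture in every glioma, and Kcnj10 does not separate them.

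Of 9 genes of potassium channels opened by intracellular calcium or sodium, 1 was called against the culture in each glioma group, near the 9.45% and 9.55% of all genes. It was Kcnu1, known from sperm and named after its values were seen. It stood at 3.99, 3.79 and 2.88 CPM in the PDGF-B-labelled tumours, 1.78, 1.85 and 2.64 CPM in the EGFRvIII-labelled tumours and 0.463 CPM in the culture (limma adjusted p = 0.0163 and 0.0463), and the calls were lost without PDGF-B replicate 1 (limma adjusted p = 0.0629) and without PDGF-B replicates 1 or 2 or EGFRvIII replicates 1 or 3 (limma adjusted p = 0.0783 to 0.116), in the order of the comparisons. Kcnma1, the large-conductance pore, stood at 42.1, 52.4 and 23.9 CPM in the PDGF-B-labelled tumours, 29.2, 16.9 and 25.7 CPM in the EGFRvIII-labelled tumours and 11.7 CPM in the culture, with every glioma above the culture and neither comparison passing (limma adjusted p = 0.0767 and 0.271). Its beta subunit Kcnmb4 stood at 18.3, 30.1 and 11.4 CPM in the PDGF-B-labelled tumours, 7.76, 2.54 and 7.64 CPM in the EGFRvIII-labelled tumours and 25.8 CPM in the culture and was not called. Kcnmb4 overlaps 2 of the 4 antisense RNAs, Kcnmb4os1 and Kcnmb4os2, and reads of the 2 strands cannot be told apart.

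Between the glioma groups, 7 of the 95 genes were called, against 3.35% of all genes. In the PDGF-B-labelled tumours 5 were higher, against 0.717%, and 2 were lower, against 2.63%. At an unadjusted p of 0.05, 27 of the 95 passed, against 16.7%. All 3 PDGF-B-labelled tumours lay above all 3 EGFRvIII-labelled ones for 25 of the 95 genes, against 10.3% of all genes, and below them for 4, against 12.6%. The 5 higher genes came from 5 families: a calcium channel pore, a calcium channel beta subunit, a voltage-gated potassium pore, an inward rectifier and a calcium-activated potassium pore. Oligodendrocyte precursor markers stood at means of 9.98, 10.6 and 9.59 log2 CPM in the PDGF-B-labelled tumours and 8.91, 8.55 and 8.59 log2 CPM in the EGFRvIII-labelled tumours, with 2 of 10 called higher in the former. Of 9 myelinating oligodendrocyte markers 2 were also called higher there, and of 10 astrocyte markers 1. The part of these cells in these calls was not tested. Each of the 7 calls held with all 6 gliomas or without PDGF-B replicate 3, and was lost when any of the other 5 gliomas was left out. With voom weights the Kcnj2 and Kcnn2 calls were lost (limma adjusted p = 0.0572 and 0.0573).

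Cacna1g, the T-type calcium pore described above, had a mean of 77.4 ± 56.7 CPM (SD, n = 3) in the PDGF-B-labelled tumours and 4.83 ± 1.21 CPM (SD, n = 3) in the EGFRvIII-labelled tumours. The log2 difference was 3.75 ± 0.51 (SE, limma adjusted p = 0.0245), and the call was lost without PDGF-B replicates 1 or 2 or EGFRvIII replicates 1, 2 or 3 (limma adjusted p = 0.059 to 0.0981). Cacnb2, a calcium channel beta subunit, stood at 16, 12.6 and 7.52 CPM in the PDGF-B-labelled tumours, 2.84, 0.508 and 1.42 CPM in the EGFRvIII-labelled tumours and 9.09 CPM in the culture. The EGFRvIII-labelled tumours all lay below the culture, whose level fell inside the range of the PDGF-B-labelled ones. Its log2 fold change between glioma groups was 3.10 ± 0.62 (SE, limma adjusted p = 0.0449, lost without PDGF-B replicates 1 or 2 or EGFRvIII replicates 1, 2 or 3 (limma adjusted p = 0.0694 to 0.173)). Kcnq3 differed by 1.93 ± 0.24 (SE, limma adjusted p = 0.0245, lost without PDGF-B replicates 1 or 2 or EGFRvIII replicates 1, 2 or 3 (limma adjusted p = 0.0694 to 0.0905)).

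Kcnj3, a G protein-gated inward rectifier pore, stood at 7.06, 7.09 and 4.65 CPM in the PDGF-B-labelled tumours, 0.201, 0.684 and 1.25 CPM in the EGFRvIII-labelled tumours and 0.557 CPM in the culture. The EGFRvIII-labelled tumours were near the culture and the PDGF-B-labelled ones above both, with a log2 fold change between glioma groups of 3.30 ± 0.61 (SE, limma adjusted p = 0.0376, lost without PDGF-B replicates 1 or 2 or EGFRvIII replicates 1, 2 or 3 (limma adjusted p = 0.0718 to 0.139)). Kcnn2, a small-conductance calcium-activated pore, stood at 13.4, 17.2 and 7.48 CPM in the PDGF-B-labelled tumours, 1.77, 3.41 and 3.34 CPM in the EGFRvIII-labelled tumours and 2.51 CPM in the culture. It differed between the glioma groups by 2.11 ± 0.42 (SE, limma adjusted p = 0.0449, lost without PDGF-B replicates 1 or 2 or EGFRvIII replicates 1, 2 or 3 (limma adjusted p = 0.114 to 0.184)). Kcnj3 and Kcnn2 each overlap a measured gene on the opposite strand, so their values carry that uncertainty.

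The leak channel Kcnk6 and the inward rectifier Kcnj2 were lower in the PDGF-B-labelled tumours. Kcnk6 differed by -2.70 ± 0.36 (SE, limma adjusted p = 0.0245, lost without PDGF-B replicates 1 or 2 or EGFRvIII replicates 1, 2 or 3 (limma adjusted p = 0.0677 to 0.0973)). Kcnj2, a strong inward rectifier that stabilises the resting potential and is known from microglia among other cells, stood at 5.65, 5.27 and 5.28 CPM in the PDGF-B-labelled tumours, 12, 16.1 and 25.2 CPM in the EGFRvIII-labelled tumours and 7.98 CPM in the culture. Its log2 difference was -1.64 ± 0.32 (SE, limma adjusted p = 0.0401, lost without PDGF-B replicates 1 or 2 or EGFRvIII replicates 1, 2 or 3 (limma adjusted p = 0.0718 to 0.14)). Kcnj2 and Kcnj16 are neighbours on chromosome 11, Kcnj16 from 110968033 to 111027968 and Kcnj2 from 111066164 to 111076821. Kcnj16 was not called between the glioma groups (log2 fold change 0.78, limma adjusted p = 0.18). The microglia and macrophage markers differed between the glioma groups in the direction of Kcnk6 and Kcnj2, with a median of -3.26. Of these, 16 of 16 were called lower in the PDGF-B-labelled tumours, against 2.63% of all genes. Their sum was highest in EGFRvIII replicate 2, and Kcnj2 was highest in EGFRvIII replicate 3. The part of such cells in these results was not tested.

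**Figure D5:**
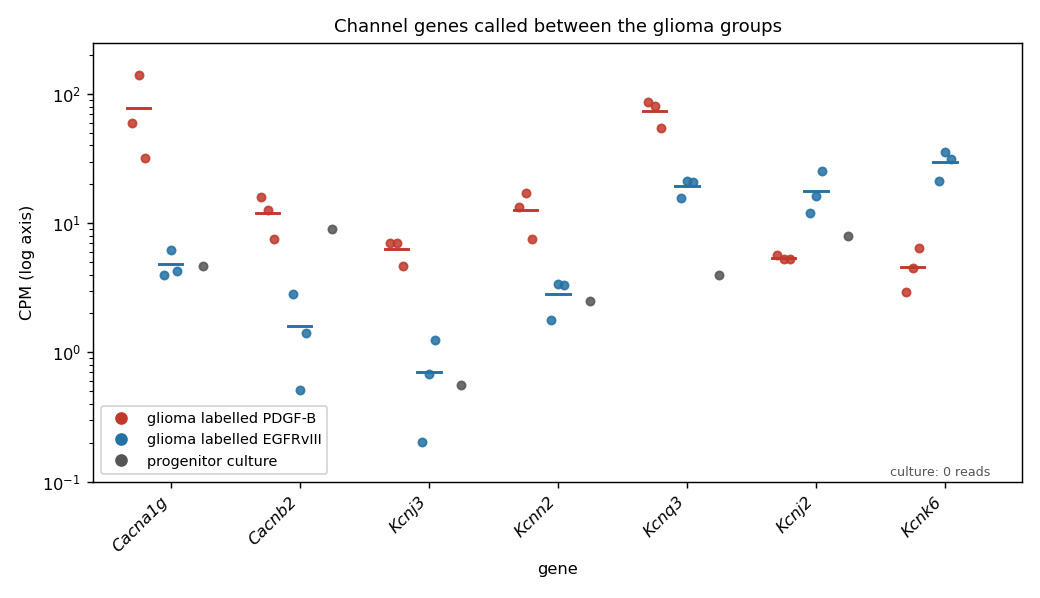
CPM on a log axis of the 7 channel genes called between the glioma groups, in each library (points; red, labelled PDGF-B; blue, labelled EGFRvIII; grey, culture), with horizontal bars at the group means. The glioma groups do not overlap for any of the 7, and Kcnk6 has no culture point because it had no read there; Cacna1g lies at 31.9 to 141 CPM against 3.99 to 6.22 CPM.

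Libraries also differed within a label. PDGF-B replicate 3 had the lowest value of its group for 69 of the 95 genes, and EGFRvIII replicate 2 for 49. Relative to the mean of the 6 gliomas, the median channel gene stood at 0.52 and 0.56 on the log2 scale in PDGF-B replicates 1 and 2 and at -0.05 in replicate 3. In EGFRvIII replicates 1 to 3 it stood at -0.20, -0.61 and -0.11. The same median over all genes was at most 0.02 in every glioma.

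Levels of different genes were compared per kilobase of exon. Kcnip3 was the most abundant channel gene in the gliomas, with means of 171 and 126 CPM per kilobase in the PDGF-B-labelled tumours and EGFRvIII-labelled tumours against 33.6 in the culture. Kcnj10 followed in the gliomas, at 119 and 99.8 CPM per kilobase, and led in the culture at 113. Kcnd3 came next, at 54.2, 31.7 and 30.4 CPM per kilobase in the same order. Cacng7 stood at 46.5, 26.3 and 22.5, and lay below Kcnd2 in the culture. Kcnd2, Kcnj16 and Kcnk2 ranged from 18.6 to 34.4 CPM per kilobase in the glioma groups. In the culture, Kcnk2 stood at 4.96 and Kcnj16 at 6.0 CPM per kilobase, well under Kcnd2 at 25.6.

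Other cation channels outside the symbol rule were counted from a separate list. Of 25 measured TRP, acid-sensing, HCN, store-operated and related channels, 8 were called higher in each glioma group against the culture, with medians of 0.70 and 0.98. The shares of all genes called higher were 7.73% and 8.2%. None was called lower by limma, by limma with voom weights or at an unadjusted p of 0.05. With voom weights the higher calls numbered 0 in the PDGF-B-labelled tumours and 2 in the EGFRvIII-labelled ones. The smallest p in both comparisons was that of Trpv2, a TRP channel known from macrophages, at 3.26, 3.48 and 6.69 CPM in the PDGF-B-labelled tumours, 11.8, 16.7 and 10.2 CPM in the EGFRvIII-labelled tumours and 0.116 CPM in the culture (limma adjusted p = 0.0042 and 0.00102). Between the glioma groups, 1 of the 25 was called, near the 3.35% of all genes. It was Trpc4, at 0.146, 0.242 and 0.140 CPM in the PDGF-B-labelled tumours and 1.12, 2.33 and 3.82 CPM in the EGFRvIII-labelled tumours (log2 fold change -3.27 ± 0.55, SE, limma adjusted p = 0.0312, lost without PDGF-B replicates 1 or 2 or EGFRvIII replicates 1, 2 or 3 (limma adjusted p = 0.0694 to 0.125) and with voom weights (limma adjusted p = 0.0503)). Of 24 cation pumps and transporters, 4 were called higher and 1 lower in the PDGF-B-labelled tumours, against 7.73% and 1.73% of all genes. In the EGFRvIII-labelled tumours 2 were called higher, close to the 8.2% of all genes. The medians were 0.98 and 0.72. The smallest p for a rise was that of Fxyd7, a regulator of the sodium pump, at 3.58, 11.6 and 4.68 CPM in the PDGF-B-labelled tumours, 0.660, 2.72 and 2.21 CPM in the EGFRvIII-labelled tumours and 0.145 CPM in the culture (limma adjusted p = 0.0215 in the PDGF-B-labelled tumours). The gene called lower was Slc12a7, a potassium-chloride cotransporter, at 3.84, 2.21 and 5.35 CPM in the PDGF-B-labelled tumours, 12.7, 26.0 and 12 CPM in the EGFRvIII-labelled tumours and 23.1 CPM in the culture (log2 fold change -2.67, limma adjusted p = 0.0394), and that call was lost without PDGF-B replicates 1 or 2 or EGFRvIII replicates 1 or 3 (limma adjusted p = 0.065 to 0.0872). With voom weights the Fxyd7 and Slc12a7 calls were lost (limma adjusted p = 0.118 and 0.0534).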

How the data were processed

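RNA from 7 libraries (6 sorted gliomas, 1 sorted culture) was read on a BGISEQ-500, per the labels' protocols, which mention both poly(A) selection and ribosomal RNA removal. STAR, edgeR and mm10 appear in the submitters' processing notes, without versions. The authors deposited log2 CPM for 17422 Ensembl genes, per the file headers; 1 of the 7 headers names no unit, and its values share the floor and range of the rest. The deposited floor of -4.12 log2 CPM and the spacing of low values show a prior count of 2 and steps of 0.01 of a read. Of the low values, 56.4% to 60.9% were whole reads within 0.02 of a read, so no count model was the main test. CPM without the prior was recovered from them. Symbols, positions and exon lengths came from GENCODE M21 (GRCm38), which gave a symbol for 17254 IDs and none for 168, and promoter windows came from RefSeq.

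The log2 values were fitted with limma 3.58.1 in R 4.3.3 (trend and robust empirical Bayes). The 6 gliomas were fitted in 2 groups, and the culture comparisons used all 7 libraries in 3 groups, each with 4 residual degrees of freedom. P-values were Benjamini-Hochberg adjusted over all genes. Log2 fold changes understate changes of genes with few reads. The fits were tested on simulated data. Each tumour is described as independent, so the gliomas of a label were the replicates. Alternatives covered other scalings, pseudocounts, a CPM minimum of 1, moderation without trend, voom weights, a replicate block, an adjusted p of 0.01 and leaving out each glioma.

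Genes named were Nalcn, Kcnj10 and Scn3a, the 12 called members of smallest p per comparison and direction, the 2 members of highest CPM per kilobase in each family, the drivers, and the called gene of smallest p per direction in each other list; a few genes that this rule or the families include are not reported here. Lists of partners, other channels, pumps and cell type markers were written for this work. The members and lists were chosen with earlier results of these data known.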

Additional observations from a re-analysis of the deposited data

Results flagged for a closer look

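Kcnj2, the strong inward rectifier gene, was the only one of the 95 channel genes for which every tumour of one label lay above the culture and every tumour of the other label below it. It stood at 5.65, 5.27 and 5.28 CPM in the PDGF-B-labelled tumours, 12, 16.1 and 25.2 CPM in the EGFRvIII-labelled tumours and 7.98 CPM in the culture. The difference between the glioma groups was -1.64 on the log2 scale (limma adjusted p = 0.0401), and this call was lost when any glioma other than PDGF-B replicate 3 was left out (limma adjusted p = 0.0718 to 0.140) or with voom weights (limma adjusted p = 0.0572). Neither glioma group differed from the culture at the threshold (limma adjusted p = 0.452 and 0.195). The position of the lone culture library between the groups has no replicate.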

How the results depend on the processing

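With all gliomas, the comparison between glioma groups called 583 genes and 7 channel genes. It called 7 and 0 at an adjusted p of 0.01, 224 and 3 with moderation without trend or robust fitting, and 18 and 0 with a replicate block. Leaving out each glioma gave 4 to 1282 genes and 0 to 18 channel genes. No shared litter or day is stated for gliomas of the same number. Same-numbered deviations from the group means correlated at 0.17, -0.04 and -0.08, and differently numbered ones at -0.25 to 0.21. Deviations from means of 3 libraries cannot exclude a shared batch. No paired analysis was possible for the culture comparisons because the culture shares no numbered replicates with the gliomas. The PDGF-B-labelled tumours against the culture gave 1647 genes and 26 channel genes, and 507 and 13 at an adjusted p of 0.01, 721 and 12 with only the 4 libraries compared, 553 and 13 with voom weights, and 854 to 2303 and 17 to 40 without each glioma. The EGFRvIII-labelled tumours against the culture gave 1663 and 23, and 704 and 11 at an adjusted p of 0.01, 721 and 9 with voom weights, and 1058 to 2030 and 14 to 29. In each, the lowest and highest leave-one-out counts of all genes came without PDGF-B replicate 1 or EGFRvIII replicate 3 and without PDGF-B replicate 3, respectively; the cause was not tested. Kcnj10, called nowhere, changed sign against the culture in the PDGF-B-labelled tumours, at -0.15 without PDGF-B replicate 2 and 0.20 without PDGF-B replicate 3. Of the refits of called channel genes, 48 of 98 kept the call between glioma groups, 303 of 364 in the PDGF-B-labelled and 256 of 321 in the EGFRvIII-labelled tumours against the culture, and 0 reversed. Calls held under every alternative other than the stricter threshold for 0 of 7, 9 of 26 and 7 of 23 genes. Library totals without scaling factors moved the median of all genes to 0.09, 0.15 and 0.04. The culture library has no replicate.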
